A study of Mus musculus with 4 samples.

Results

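The comparison set both libraries labelled Ids-ko, CxH and MH, against both libraries labelled wt, CxWT and MWT. These are the 4 libraries of the series, 2 on each side, and 12588 of its 12700 genes were used, those with 20 or more reads in at least 2 libraries. The mice were C57BL/6 and aged 9 months. Ids-ko mice lack a working Ids gene, which encodes the lysosomal enzyme iduronate 2-sulfatase, and model mucopolysaccharidosis type II (Hunter syndrome), while wt mice were their littermates and carried no deletion. Cx stands for cerebral cortex, and M for midbrain, diencephalon and hippocampus combined. Each library held RNA pooled from 7 mice, so the libraries of a side were different areas labelled as coming from the same animals, and a p-value here measured the spread between those libraries only.

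The areas of the brain differ in the neurons they hold. Projection neurons of the cortex are glutamatergic, depend on the transcription factors Tbr1, Fezf2 and the Neurod family, and load vesicles with glutamate through VGLUT1 (Slc17a7), whereas neurons of the thalamus, hypothalamus and midbrain mostly use VGLUT2 (Slc17a6). Peptide hormones such as oxytocin, vasopressin and orexin are made by neurons of the hypothalamus. Dopamine and serotonin neurons that supply the forebrain have their cell bodies in the midbrain and brainstem, where they express the synthetic enzymes and transporters of these transmitters, while their receptors are expressed by the target neurons.

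The 2 labels of a library were checked first. Ids (chromosome X, 67596244 to 67618260, NCBI37/mm9) had 135 and 368 reads per 1000000 aligned reads (RPM) in CxH and MH, and 354 and 155 RPM in CxWT and MWT. The library labelled MH therefore had more Ids reads than the library labelled MWT, against its genotype label, and with the areas joined the log2 difference was -0.07 ± 0.93 (standard error from the spread within sides; edgeR quasi-likelihood test, adjusted p = 0.99), a value whose sign turned when CxH or CxWT was left out. Reads were counted over the whole gene, so a transcript that keeps part of its exons was counted too. Markers of areas also went against the area labels. Fezf2, a transcription factor of cortical projection neurons, had 24.1 and 22.6 RPM in CxH and MH but 2.17 RPM in the library labelled CxWT and 1.35 RPM in MWT, and Hcrt, the precursor of orexin, had 542 reads in CxWT but 3 in MH. Genotype, the makeup of the tissue and any exchange of libraries cannot be told apart in this comparison, and the names Ids-ko, wt, Cx and M below are those of the labels.

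Reads on genes numbered between 16380080 and 23475080 per library, and over the larger totals of aligned reads, which RPM use, 3 reads stood between 0.0779 and 0.104 RPM. The log2 difference of a gene was the mean log2 RPM of the Ids-ko libraries minus that of the wt libraries, with 0.5 reads added. A gene was called at an adjusted p under 0.05 in the edgeR quasi-likelihood test. Of all genes, 1275 were higher in Ids-ko (10.1%) and 1609 lower (12.8%). All 2884 called genes had the same direction in both areas and did not overlap between the sides. Over all genes, called or not, both Ids-ko libraries lay above both wt libraries for 24.4% and below them for 37.1%. With TMM factors in place of aligned reads the calls split into 1641 higher and 1368 lower, or 54.5% higher in place of 44.2%. Without CxH the calls numbered 412 and 329, and without MH 619 and 552.

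The same test along the other label, Cx against M with genotypes joined, called no gene (0%), and 7 genes had an unadjusted p under 0.05. With the genotype label also in that fit it still called 0, with 612 at an unadjusted p under 0.05. In the 12390 genes with 20 or more reads in every library, 75.9% of the sum of squares of log2 RPM lay along the genotype label, 11.9% along the area label and 12.3% along their interaction. The genotype label carried the largest of the 3 components in 61.3% of these genes. Libraries sharing a genotype label were closer, with a median absolute log2 ratio of 0.20 between CxH and MH and of 0.24 between CxWT and MWT, than libraries sharing an area label, with 0.34 between CxH and CxWT and 0.40 between MH and MWT. The scatter of both areas shows the shared component as the diagonal.

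**Figure D1:**
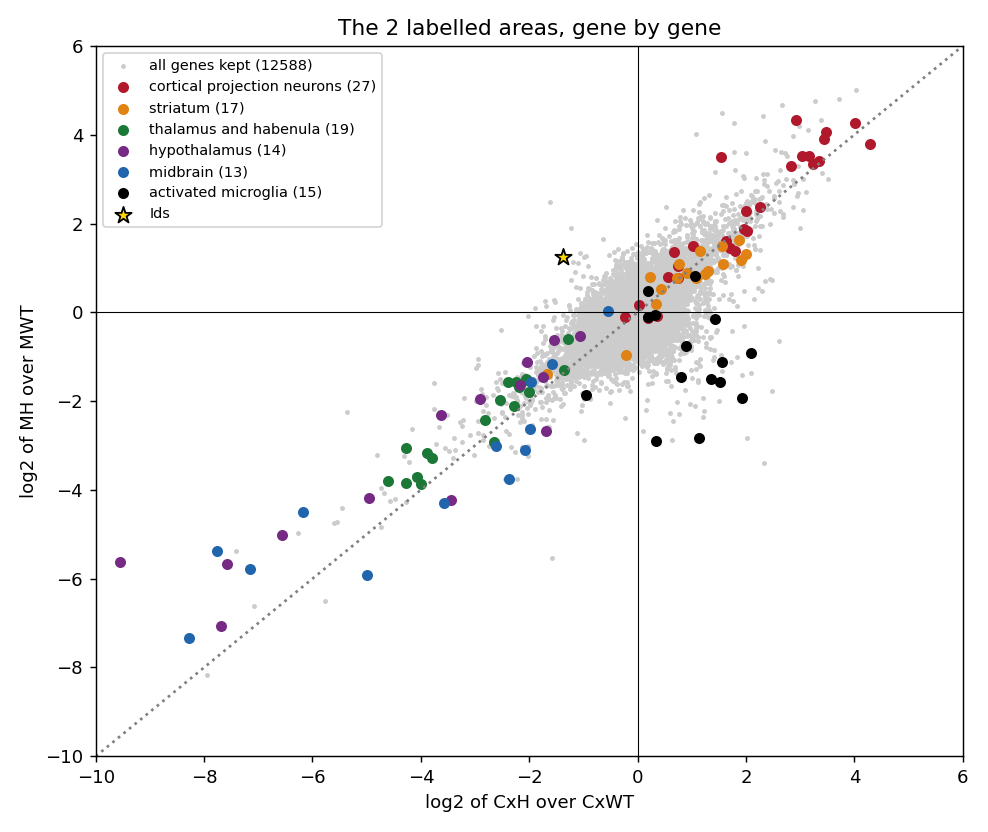
Each grey point is one of 12588 genes, placed by its log2 ratio in Cx (CxH over CxWT, x axis) and in M (MH over MWT, y axis); coloured points are members of 6 marker lists, the star is Ids, and the dotted line marks equal ratios. Genes of cortical projection neurons lie at the upper right and those of thalamus, hypothalamus and midbrain at the lower left, while Ids and most genes of activated microglia lie off the diagonal.

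The lowest called genes were nearly absent from both Ids-ko libraries. En1 (chromosome 1, 122498995 to 122505873), a transcription factor that keeps midbrain dopamine neurons alive, had 1 and 0 reads in CxH and MH and 273 and 126 in CxWT and MWT, a pooled ratio of wt to Ids-ko of 483.8 (95% exact interval 86.3 to 19158, counting error only). Pax7 (chromosome 4, 139292977 to 139389445), a transcription factor of the dorsal midbrain, had 0 and 2 reads against 125 and 85. Slc6a4 (chromosome 11, 76812105 to 76845842), the serotonin transporter, had 3 and 2 reads against 647 and 446. With Hcrt these were the 4 genes with 3 reads or fewer in both Ids-ko libraries and 50 or more in both wt libraries, and no gene had the reverse. The other 7 of the 10 lowest were Oxt, Hcrt, Pgr15l, Slc6a3, Avp, Gata3 and Sox14. Their log2 differences lay between -7.25 (Oxt) and -5.86 (Sox14). All 10 reached 20 reads in wt libraries alone and so passed the filter only through the side where they were high, which fixes their direction.

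Among the 10 highest were Ovol2, Ntn5, the long noncoding RNA 9130024F11Rik, Dkkl1, Tcap, Fezf2, Neurod6, Rtn4rl2 and Hkdc1, with log2 differences from 5.22 ± 0.76 (Ovol2) to 3.59 ± 0.43 (Hkdc1). Ovol2 and Tcap reached 20 reads in Ids-ko libraries alone, which fixes their direction. Fezf2, Neurod6, Dkkl1 and Rtn4rl2 were also in the list of cortical projection neurons. The gene of 9130024F11Rik overlaps another gene, and use of strand in the counting is not stated, so its reads are uncertain. Ntn5, a member of the netrin family of secreted guidance proteins, had 11.3 and 11.1 RPM in Ids-ko against 0.684 and 0.346 RPM in wt. Ovol2 was a low gene, with 150 and 92 reads against 4 and 1.

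Promoters of 2 genes from each end are shown because their transcripts stood at opposite ends of the comparison. Each runs from 250 bases before the RefSeq start site to 50 after it, 5' to 3' on the strand of the gene, from GRCm38.p6, a later build than that of the counts. They lie at chr6:55681214-55681513 on the minus strand (Neurod6), chr7:45163671-45163970 on the plus strand (Slc17a7), chr1:120602237-120602536 on the plus strand (En1) and chr13:73536497-73536796 on the plus strand (Slc6a3). Capitals mark matches on either strand to 4 motifs, the CCAAT box (CCAAT), the GC box (GGGCGG), the TATA box (TATAAA) and an E-box bound by Neurod proteins (CAGATG).
Neurod6: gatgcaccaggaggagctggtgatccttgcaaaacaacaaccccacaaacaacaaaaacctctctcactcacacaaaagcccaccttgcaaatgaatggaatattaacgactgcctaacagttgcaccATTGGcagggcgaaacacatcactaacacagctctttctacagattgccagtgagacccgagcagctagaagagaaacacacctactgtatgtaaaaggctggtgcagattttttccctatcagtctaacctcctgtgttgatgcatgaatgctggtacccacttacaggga
Slc17a7: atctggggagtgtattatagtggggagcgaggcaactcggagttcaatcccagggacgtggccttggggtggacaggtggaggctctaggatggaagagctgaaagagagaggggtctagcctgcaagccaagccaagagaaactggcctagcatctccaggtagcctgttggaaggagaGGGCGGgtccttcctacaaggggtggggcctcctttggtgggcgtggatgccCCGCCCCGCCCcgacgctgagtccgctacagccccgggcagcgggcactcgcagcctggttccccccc
En1: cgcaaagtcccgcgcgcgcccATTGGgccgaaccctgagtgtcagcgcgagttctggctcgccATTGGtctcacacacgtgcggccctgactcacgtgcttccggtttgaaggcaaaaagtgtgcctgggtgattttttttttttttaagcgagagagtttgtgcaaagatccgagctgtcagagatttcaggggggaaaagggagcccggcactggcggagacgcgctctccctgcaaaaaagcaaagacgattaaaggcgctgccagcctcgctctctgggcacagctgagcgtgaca
Slc6a3: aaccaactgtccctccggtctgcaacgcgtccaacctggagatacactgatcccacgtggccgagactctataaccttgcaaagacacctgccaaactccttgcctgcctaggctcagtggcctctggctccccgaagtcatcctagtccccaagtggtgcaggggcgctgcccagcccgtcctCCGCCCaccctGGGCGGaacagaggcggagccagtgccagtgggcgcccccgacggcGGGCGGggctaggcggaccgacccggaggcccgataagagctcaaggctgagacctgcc
Neurod6 held 1 CCAAT box and En1 held 2, while Slc17a7 and Slc6a3 held 3 GC boxes each, so the GC box was found at both ends of the comparison, as was the CCAAT box. The TATA box and this E-box were in none of the 4. The CCAAT box was in 37.9% of 10045 promoters of measured genes and in 10 of 22 of cortical projection neurons, 6 of 17 of thalamus and habenula, 3 of 13 of hypothalamus and 3 of 11 of midbrain. The GC box was in 65.4% of all and in 14, 10, 9 and 5 of the same lists. The E-box was in 11.3% of all and in 3, 2, 4 and 2, and the TATA box in 6.68% of all and in 2, 3, 3 and 1.

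Genes of cortical projection neurons were higher in both Ids-ko libraries, 22 of 27 measured, with 0 lower and a median log2 difference of 1.92 beside -0.08 over all genes. Slc17a7 (chromosome 7, 52419291 to 52431508), the vesicular glutamate transporter of cortex and hippocampus, had 1359 and 1240 RPM in CxH and MH against 152 and 108 RPM in CxWT and MWT. Its log2 difference was 3.34 ± 0.26 (edgeR, adjusted p = 1.88e-15). The sides were far apart and the libraries of each side close. Camk2a, the kinase subunit of the postsynaptic density, had 2898 and 2559 RPM against 604 and 492 RPM, and Nrgn, neurogranin, which binds calmodulin in dendrites, 521 and 374 RPM against 73.4 and 38.3 RPM.

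Several, but not all, transcription factors of cortical projection neurons shared this order. Tbr1, of early-born and deep-layer neurons, had 78.3 and 64.2 RPM against 8.36 and 6.36 RPM. Fezf2, which directs neurons of layer 5 to the spinal cord, had a log2 difference of 3.76 ± 0.34. Neurod6, of differentiating projection neurons, had 29.2 and 36.5 RPM against 2.68 and 2.42 RPM. Emx1, of the dorsal telencephalon, differed by 3.23 ± 0.36 on the log2 scale. Upper-layer Cux2 differed less, by 0.90 ± 0.25. Rorb, Cux1, Tle4 and Rasgrf2 were not called, with log2 differences between -0.18 and 0.14, and Nptxr, with 13.9 and 10.97 RPM against 4.82 and 0.967 RPM, was not called (adjusted p = 0.26), the wt libraries lying far apart.

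Genes of the striatum, which the paper counts in area M, were mostly higher in Ids-ko too, 12 of 17, with 2 lower and a median of 0.93. Ppp1r1b, the dopamine-regulated phosphatase inhibitor DARPP-32 of medium spiny neurons, had 320 and 239 RPM in Ids-ko against 87.2 and 77.8 RPM in wt, a log2 difference of 1.75 ± 0.23 (adjusted p = 8.70e-09). Drd1, the receptor of the direct pathway, differed by 1.11 ± 0.13, and Adora2a, the adenosine receptor of the indirect pathway, by 1.66 ± 0.40. Drd2 was not called, with 24.9 and 19.2 RPM against 18.4 and 13.3 RPM. Isl1, a transcription factor also used by cholinergic neurons, and Tac1, a tachykinin precursor, were lower.

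The hippocampus was part of area M by the labels. Of its 8 genes measured, with a median log2 difference of 0.77, 4 were higher, Spink8, Fibcd1 and Wfs1 among them. The median moved to 0.39 without MWT and to 0.44 over the genes with 100 or more reads in every library. Prox1, a transcription factor of dentate granule cells, was lower, with 9.64 and 13.3 RPM against 20.3 and 14.7 RPM (log2 difference -0.61 ± 0.33, edgeR, adjusted p = 0.048). C1ql2, also of granule cells, had 9.61 and 10.04 RPM against 12.8 and 11.02 RPM and was not called. Of 7 genes of the cerebellum 3 were lower, with Ppp1r17 of Purkinje cells the lowest at -2.65 ± 0.80, and Neurod1, which is shared with the cortical list, was higher.

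Of 20 genes listed for thalamus and habenula 19 were measured, and these were lower in Ids-ko, with a median log2 difference of -2.26. In 3 of them, including Gbx2, only wt libraries reached 20 reads, so that they entered through the side where they were high. The other 16 were lower with a median of -2.10. With 100 or more reads required in every library 10 were called. Tcf7l2, a transcription factor that maintains thalamic identity, had 3.71 and 3.27 RPM in CxH and MH against 59.3 and 48.0 RPM in CxWT and MWT, a difference of -3.93 ± 0.18 (adjusted p = 2.63e-17). Gbx2, which specifies thalamic neurons, had 0.416 and 0.402 RPM against 6.96 and 5.25 RPM. Prkcd, a kinase of thalamic relay neurons, had 16.8 and 21.4 RPM against 118 and 115 RPM. The habenula followed, with Gpr151, a receptor of habenular neurons, at 0.493 and 0.669 RPM against 6.87 and 6.53 RPM. The smallest difference was that of Lef1, -0.94 ± 0.43.

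Of 28 hypothalamic genes listed 18 had counts and 14 passed the filter, of which 13 were lower, with a median of -2.70. For 6 of the 14, Oxt, Avp and Hcrt among them, only wt libraries reached 20 reads, which fixes their direction, and of the other 8, 7 were lower with a median of -1.75. With 100 or more reads required in every library 3 were called. Oxt (chromosome 2, 130401909 to 130402790), the oxytocin precursor, had 1 and 6 reads in CxH and MH and 658 and 231 in CxWT and MWT. Avp, which encodes vasopressin and neighbours Oxt, had 3 and 7 reads against 503 and 276. Hcrt had 3 and 3 reads against 542 and 312, a difference of -7.16 ± 0.29. These 3 hormone genes thus had 7 reads or fewer in either Ids-ko library, and 231 or more in either wt library. Other peptides differed by less, Gal (galanin), which also entered through wt libraries alone, by -3.78 ± 0.42, Cartpt by -2.43 ± 0.48, Trh by -2.18 ± 0.35 and Pomc by -1.57 ± 0.33 on the log2 scale. Gnrh1 was not called (adjusted p = 0.13).

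Of 26 genes listed for the midbrain 13 were measured and 12 were lower, with a median of -3.03, the exception being Gata2, at 3.40 and 3.40 RPM against 4.997 and 3.32 RPM. For 5 of the 13, En1, Pax7, Gata3, Sox14 and Irx2, only wt libraries reached 20 reads, which fixes their direction. Of the other 8, 7 were lower with a median of -2.42. No member had 100 or more reads in every library, so under that filter 0 could be called. Gata3 and Sox14, transcription factors of GABA neurons of the midbrain, were among the 5 that entered through wt libraries alone. Gata3 had 1 and 4 reads in Ids-ko against 189 and 128 in wt, and Sox14 had 3 and 0 against 83 and 47, a pooled ratio of wt to Ids-ko of 52.6 (95% exact interval 17.6 to 258). Irx2 differed by -5.23 ± 0.64 and En2 by -3.03 ± 0.70 on the log2 scale. The lists of hindbrain and pituitary had 0 genes measured. Since the samples were pieces of tissue, fewer cells of a type and less RNA per cell cannot be told apart for any of these lists.

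**Figure D2:**
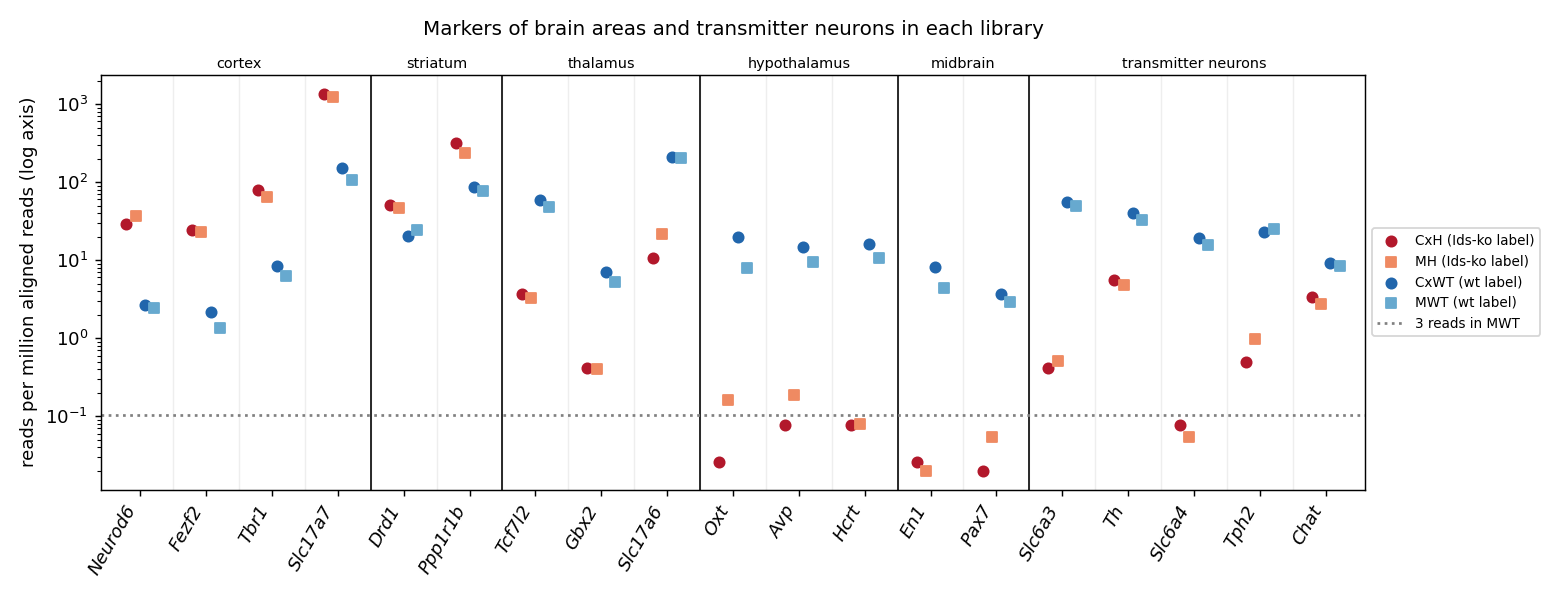
Level of 19 markers (x axis) in each library, in RPM on a log axis; red and orange points are the libraries labelled Ids-ko, blue points those labelled wt, circles Cx and squares M, the dotted line is 3 reads in MWT, and libraries with 0 reads are drawn at the bottom edge. Red and orange points lie above both blue points for the cortical and striatal genes and below them for all others, whichever area is labelled.

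The monoamine neurons followed the midbrain genes. Of 12 genes of dopamine neurons 11 were lower, with a median of -2.87, and of the 10 that did not enter through wt libraries alone 9 were lower. The direction of Slc6a3 and Chrna6 was fixed in that way. Under the filter of 100 or more reads in every library, 5 members were called lower. Slc6a3 (chromosome 13, 73674195 to 73716120), the dopamine transporter, had 0.416 and 0.508 RPM in CxH and MH against 56.4 and 49.8 RPM in CxWT and MWT, a log2 difference of -6.81 ± 0.17. Th, tyrosine hydroxylase, the rate-limiting enzyme of dopamine and noradrenaline synthesis, had 5.53 and 4.76 RPM against 39.8 and 32.5 RPM. Ddc, which makes dopamine and serotonin from their precursors, differed by -2.93 ± 0.13, and Slc18a2, the vesicular monoamine transporter, by -3.79 ± 0.31. Nr4a2, a nuclear receptor needed by dopamine neurons and also expressed by cortical neurons, was higher, with 24.6 and 31.1 RPM against 11.3 and 7.12 RPM (1.62 ± 0.37, adjusted p = 1.23e-06).

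Of 12 genes of serotonin neurons 9 were lower, with a median of -2.41, and of the 9 that did not enter through wt libraries alone 6 were lower, with a median of -1.23. This list shared members with others, Slc18a2 and Ddc with that of dopamine neurons, and Gata2 and Gata3 with that of the midbrain. Under the filter of 100 or more reads in every library, 2 were called lower. Tph2, the serotonin-synthesizing enzyme of neurons, had 0.493 and 0.964 RPM against 23.1 and 25.3 RPM, a difference of -5.11 ± 0.48 (adjusted p = 1.07e-17). The serotonin transporter gene Slc6a4 had 0.0779 and 0.0535 RPM against 19.3 and 15.4 RPM. Htr5b, Slc22a3 and Gata2 were not called. All 3 genes measured for noradrenaline neurons were lower, and of these only Dbh, dopamine beta-hydroxylase, was in no other list, with 0.338 and 0.375 RPM against 3.18 and 2.83 RPM. Dbh also entered through wt libraries alone, which fixes its direction. Under the filter of 100 or more reads in every library, 1 noradrenaline gene was called lower.

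Cholinergic neurons showed the same order at a smaller size, all 7 genes being lower with a median of -1.58. Under the filter of 100 or more reads in every library, 4 were called lower. Chat, choline acetyltransferase, had 3.35 and 2.78 RPM in Ids-ko against 9.25 and 8.43 RPM in wt (-1.53 ± 0.15, adjusted p = 1.41e-05). Slc5a7, the choline transporter, differed by -2.04 ± 0.16, and Ache, acetylcholinesterase, by -1.39 ± 0.21. Chat was thus still detected in both Ids-ko libraries, unlike the transporter of serotonin, which had 3 reads or fewer.

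Vesicular glutamate transporters went opposite ways. Slc17a6 had 10.5 and 21.8 RPM in CxH and MH against 208 and 205 RPM in CxWT and MWT, a log2 difference of -3.77 ± 0.53 (adjusted p = 1.38e-07), opposite to that of Slc17a7. Per kilobase of transcript, Slc17a7 exceeded Slc17a6 by a factor of 189.9 in CxH and 83.4 in MH, while the ratio was 1.08 in CxWT and 0.772 in MWT. Slc17a8, VGLUT3, was lower by a smaller amount (-1.23 ± 0.06). Of the 10 genes of glutamate handling 2 were higher and 3 lower, beside 10.1% and 12.8% of all genes. These calls included Slc1a2, the astrocytic glutamate transporter, at 0.63 ± 0.15, and Slc38a1, a neuronal glutamine carrier, at -0.90 ± 0.02.

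Genes of GABA and glycine handling were lower for 5 of 9 and higher for 0, with a median of -0.63. Gad2, a GABA-synthesizing enzyme, had 117 and 126 RPM in Ids-ko against 274 and 302 RPM in wt (-1.24 ± 0.09), and Slc6a11, the GABA transporter GAT3, 125 and 98.1 RPM against 406 and 371 RPM. Gad1 was lower (-0.63 ± 0.10, adjusted p = 0.019), and Slc32a1, the vesicular GABA transporter, had 103 and 71.9 RPM against 139 and 96.2 RPM and was not called. The sides stayed closer here than for VGLUT1 and VGLUT2. Without CxH or without MH 2 of the 9 were called. Per kilobase of transcript Gad1 stood at 0.176 and 0.199 of Slc17a7 in CxH and MH and at 2.32 and 3.74 times Slc17a7 in CxWT and MWT.

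Interneuron genes went in both directions, 9 of 24 higher and 5 lower, beside 10.1% and 12.8% of all genes, with a median of 0.42. Cort entered through Ids-ko libraries alone, and of the other 23, 8 were higher with a median of 0.38. Peptide genes did not all go 1 way. Npy was higher, with 43.9 and 42.8 RPM against 12.2 and 9.29 RPM, as were Vip, with 20.8 and 27.1 RPM against 6.51 and 6.18 RPM, and Sst, with 91.5 and 67.6 RPM against 46.4 and 34.3 RPM. The tachykinin precursor Tac1, also in the striatal list, was lower. Cck (1.91 ± 0.33), Cort (2.36 ± 0.20) and Htr3a (1.81 ± 0.09) were higher as well. The calcium-binding protein calretinin (Calb2) was lower, with 13.7 and 14.6 RPM against 98.7 and 68.5 RPM, and parvalbumin (Pvalb) was lower (-0.78 ± 0.29, adjusted p = 0.0052). Dlx1, Dlx2, Dlx5 and Dlx6, transcription factors of forebrain GABA neurons, were not called, with log2 differences from 0.27 to 0.68.

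**Figure D3:**
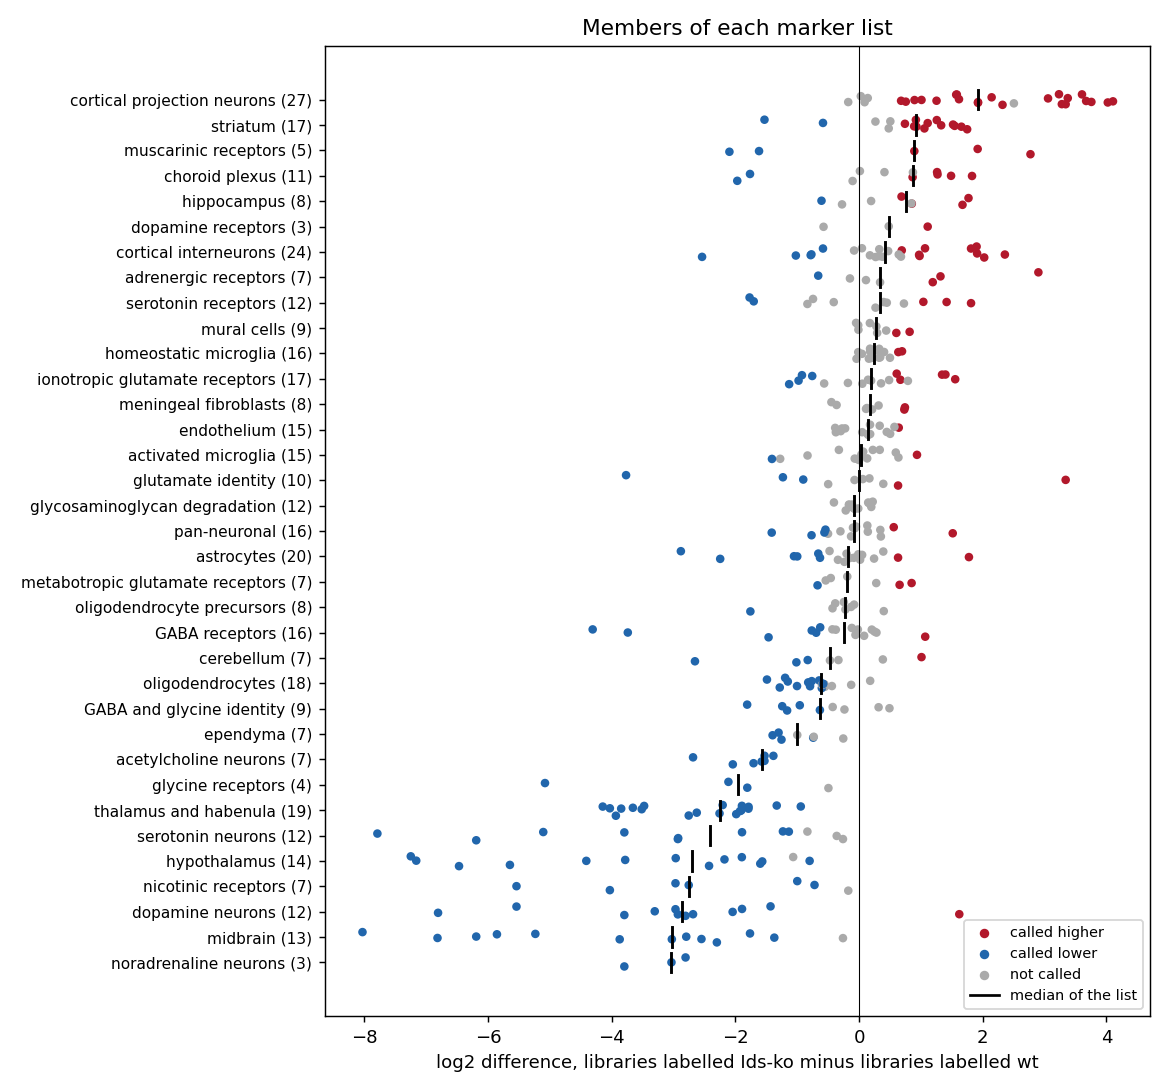
Log2 difference between the libraries labelled Ids-ko and those labelled wt (x axis) for every member of each marker list with 3 or more genes measured (rows, number of genes in brackets); red points were called higher, blue called lower, grey not called, and black bars are list medians. The lists run from cortical projection neurons, with a median of 1.92, to noradrenaline neurons, with a median of -3.03.

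Receptors of the same transmitter divided between the sides. Among the 5 muscarinic receptors Chrm1, the main excitatory one of the cortex, had 168 and 162 RPM in CxH and MH against 27.7 and 21.0 RPM in CxWT and MWT (log2 difference 2.77 ± 0.20, adjusted p = 6.77e-14), and Chrm4 and Chrm3 were also higher. Chrm2, an autoreceptor of cholinergic neurons, and Chrm5, found on dopamine neurons, were lower, with log2 differences of -1.62 ± 0.12 and -2.096 ± 0.63. Of 7 nicotinic subunits 6 were lower and 0 higher, with a median of -2.75, which was -0.72 over the genes with 100 or more reads in every library. Chrna6 entered through wt libraries alone, and of the other 6, 5 were lower with a median of -1.88. Chrna6, of dopamine neurons, had 0.182 and 0.375 RPM against 13.9 and 11.7 RPM, and Chrna3, of the habenula, 0.416 and 0.616 RPM against 8.06 and 8.88 RPM. The widespread subunits Chrna4 and Chrnb2 differed by -0.999 ± 0.20 and -0.72 ± 0.10, and Chrna7 was not called.

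Of 17 ionotropic glutamate receptor subunits 5 were higher and 4 lower, beside 10.1% and 12.8% of all genes. Their median was 0.20 (0.11 without MWT and 0.076 after a correction for GC content and length). The NMDA receptor subunits Grin2a and Grin2b, which prevail in forebrain neurons, had 39.8 and 41.5 RPM and 59.3 and 51.5 RPM in Ids-ko against 15.7 and 12.2 RPM and 24.6 and 17.9 RPM in wt. Grin2d, a subunit of diencephalon and brainstem, was lower, with 10.1 and 9.18 RPM against 29.5 and 15.1 RPM. Gria1 and Gria2, the main AMPA receptor subunits, were not called, with log2 differences of 0.05 ± 0.11 and 0.36 ± 0.20. Of 7 metabotropic receptors Grm2 and Grm3 were higher and 1 was lower, counts to be read beside the same shares of all genes.

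Receptors of inhibitory transmitters were lower in part. Of 16 GABA receptor subunits 6 were lower and Gabrd alone, an extrasynaptic subunit, was higher (1.07 ± 0.15), beside 12.8% and 10.1% of all genes. Gabre entered through wt libraries alone, and of the other 15, 5 were lower. After a correction for GC content and length 3 were higher and 4 lower. Gabrq, of hypothalamic and monoamine neurons, had 0.390 and 0.535 RPM against 10.4 and 8.33 RPM. Of 4 glycine receptor subunits 3 were lower, of which Glra1 entered through wt libraries alone. Glra1, the adult subunit of brainstem and spinal cord, had 0.156 and 0.214 RPM against 7.56 and 5.77 RPM (-5.08 ± 0.29), and Glrb had 125 and 150 RPM against 186 and 202 RPM and was not called.

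Among monoamine receptors, Drd1 was the only one of 3 dopamine receptors called. Of 12 serotonin receptors 3 were higher (Htr3a, Htr6 and Htr2a) and 2 lower, beside 10.1% and 12.8% of all genes. Htr2c, abundant in choroid plexus and in many subcortical neurons, had 31.8 and 44.2 RPM against 122 and 134 RPM, and Htr7, of thalamus and hypothalamus, 6.99 and 9.23 RPM against 26.2 and 26.2 RPM. Of 7 adrenergic receptors 3 were higher and Adra2a was lower, beside the same shares of all genes. Adra1d, a receptor of cortical and hippocampal neurons, differed most, with 22.4 and 18.5 RPM against 2.59 and 2.83 RPM (2.90 ± 0.15, adjusted p = 1.01e-12).

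**Figure D4:**
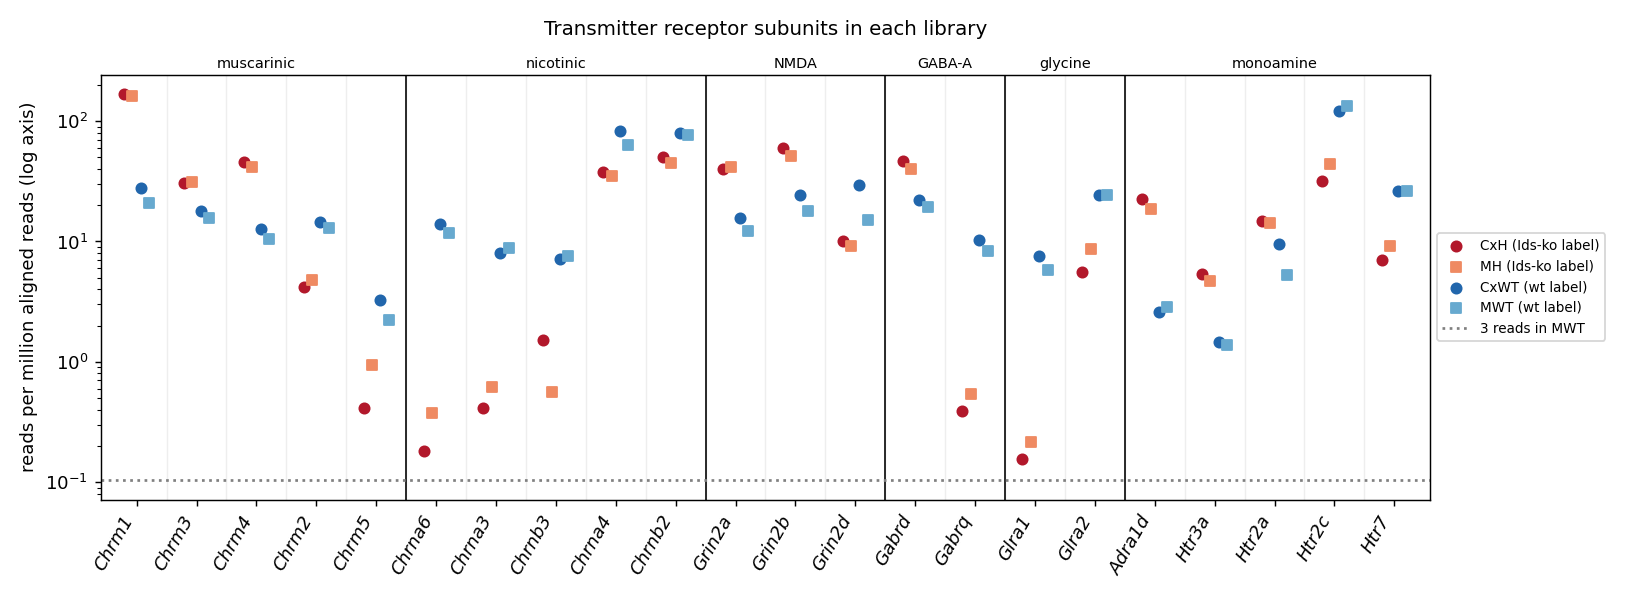
Level of 22 receptor subunits (x axis) in each library, in RPM on a log axis, with colours and symbols for the libraries given in the key and a dotted line at 3 reads in MWT. Chrm1, Chrm4, Grin2a, Grin2b, Gabrd and Adra1d lie higher in both Ids-ko libraries, and Chrna6, Gabrq and Glra1 lie lowest there.

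Of 16 genes that all neurons share 2 were higher and 4 lower, beside 10.1% and 12.8% of all genes, with log2 differences from -1.41 to 1.51 and a median of -0.08, that of all genes, and of -0.14 to -0.008 over the alternatives. Snap25, of the synaptic vesicle fusion machinery, had 1127 and 1131 RPM in Ids-ko against 1014 and 1344 RPM in wt, and Map2, of dendrites, 437 and 473 RPM against 465 and 532 RPM. Neither was called. Nefh, the heavy neurofilament of large projecting axons, was lower (-1.41 ± 0.03), and Rbfox3 (NeuN) was higher (1.51 ± 0.41).

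Oligodendrocyte genes were lower for 12 of 18 and higher for 0, with a median of -0.62. Mog, at the myelin surface, had 32.7 and 41.0 RPM against 73.7 and 72.9 RPM (log2 difference -1.003 ± 0.16, adjusted p = 0.00018). Mbp, myelin basic protein, had 3077 and 3115 RPM against 5487 and 3746 RPM and was not called. Without CxH 4 of the 18 were called and without MH 5. Of 8 genes of oligodendrocyte precursors Lhfpl3 alone was called, lower at -1.76 ± 0.33, a count to be read beside the 12.8% of all genes. Pdgfra, the defining receptor of these precursors, had 41.9 and 46.2 RPM against 48.0 and 48.1 RPM.

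Astrocyte genes split. Of 20 genes 6 were lower and 2 higher, the latter at the share of all genes. The median was -0.18, and it moved to -0.39 without CxH and to 0.015 without MH. Agt, angiotensinogen, which astrocytes of diencephalon and brainstem express most, had 12.2 and 14.7 RPM against 119 and 82.0 RPM (-2.88 ± 0.30, adjusted p = 6.28e-14), and Itih3 differed by -2.25 ± 0.21. Chrdl1, a secreted factor of astrocytes of the upper cortex, was higher, with 17.1 and 15.5 RPM against 4.52 and 4.98 RPM. Widely expressed genes such as Aldh1l1 and Mlc1 were not called. Gfap, which reactive astrocytes raise, had 604 and 253 RPM against 280.1 and 555 RPM and was not called either.

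Of 11 choroid plexus genes 5 were higher and 2 lower, beside 10.1% and 12.8% of all genes. The median of 0.87 moved to 0.014 over the genes with 100 or more reads in every library, to 0.33 without CxWT and to 0.52 without MH. Ttr, transthyretin, had 537 and 583 RPM against 113 and 221 RPM (1.83 ± 0.49, adjusted p = 5.2e-05), while Otx2, also of the midbrain list, and Prlr were lower. Of 7 ependymal genes 4 were lower, a count that fell to 0 without CxH and 1 without MH. Foxj1, the regulator of motile cilia, had 8.03 and 6.91 RPM against 13.2 and 11.7 RPM. Of 15 endothelial genes 1 was higher (Cldn5), of 9 mural genes 2 (Pdgfrb and Anpep) and of 8 genes of meningeal fibroblasts 2 (Islr and Slc22a6), counts to be read beside the 10.1% of all genes, with none lower, and neither of the 2 red cell genes was called.

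Microglial genes gave few calls with the areas joined, and many went opposite ways in the areas. Of 16 homeostatic genes 2 were higher, Tmem119 and Selplg, and of 15 activated genes Lpl was higher and Spp1 lower, counts to be read beside the 10.1% and 12.8% of all genes. Over the activated list the median log2 ratio was 1.06 between the libraries labelled Cx and -1.11 between those labelled M. Lyz2, the lysozyme of macrophages, had 75.6 and 20.3 RPM in CxH and MH against 19.8 and 77.4 RPM in CxWT and MWT, so that CxH was close to MWT and MH to CxWT. The same order was seen for Ids inverted, with 135 RPM in CxH, 155 RPM in MWT and 354 and 368 RPM in the other two. Whether this order and that of the area markers have one source was not tested.

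**Figure D5:**
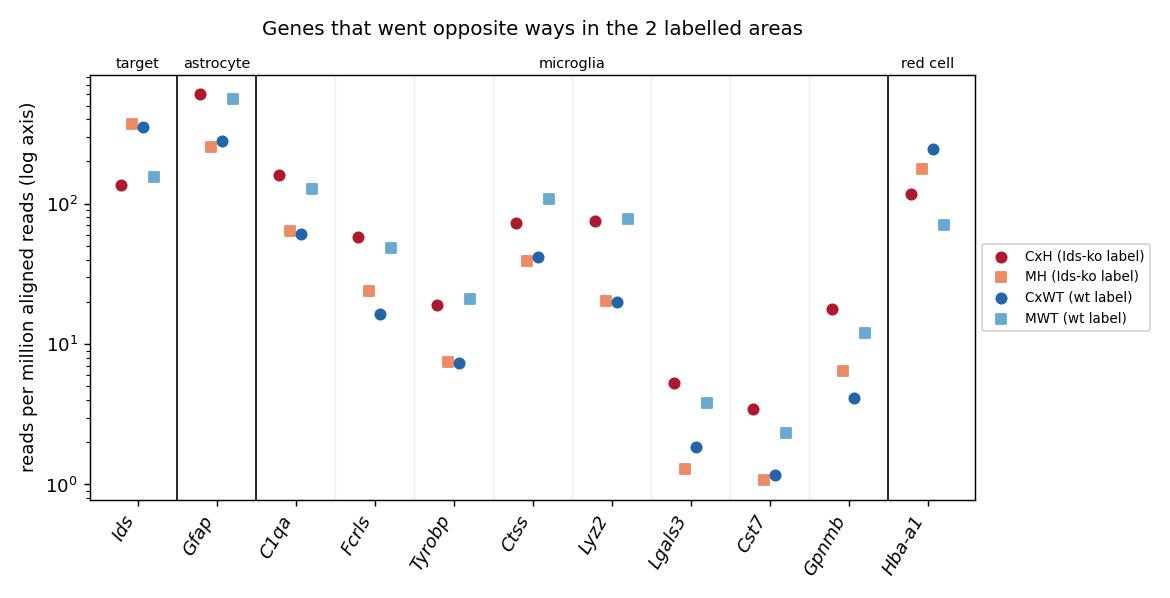
Level of 11 genes (x axis) whose ratios between Ids-ko and wt went opposite ways in the 2 labelled areas, in RPM on a log axis, with colours and symbols for the libraries given in the key. CxH and MWT lie together above MH and CxWT for Gfap and the microglial genes and below them for Ids and Hba-a1.

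The pathway in which Ids acts gave no call. Glycosaminoglycans are degraded in lysosomes by a series of sulfatases, glycosidases and an acetyltransferase, and 0 of the 12 measured genes were called, with a median of -0.08 (-0.24 without CxH and 0.047 without MH) and differences from -0.41 (Hgsnat, the acetyltransferase of heparan sulfate) to 0.22 (Arsb, a sulfatase of dermatan sulfate). Hexa, a beta-hexosaminidase subunit, had 67.2 and 35.6 RPM in CxH and MH against 37.5 and 51.9 RPM in CxWT and MWT, and Gusb, beta-glucuronidase, 10.9 and 6.34 RPM against 6.96 and 11.6 RPM.

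The difference between sides also varied with base composition. Across 10700 genes with 100 or more reads in every library, the log2 difference had a Spearman rho of 0.53 with the GC content of the transcript, and the difference along the area label a rho of 0.81 (a description across genes of the same 4 libraries). Transcripts of the genes called higher had a median GC content of 55.4%, those of genes called lower 46.0% and the others 50.8%. After a correction for GC content and length, fitted on these same genes, the rho was -0.01, which the fit itself brings near 0. The calls then numbered 1231 and 1653, and 70.7% of the uncorrected calls were among them. After the correction 22 cortical genes were higher, and 18 thalamic, 13 hypothalamic, 12 midbrain and 11 dopamine neuron genes lower. Other lists changed, the hippocampus to 2 higher and 2 lower with a median of 0.34 in place of 0.77, the striatum to 10 higher, astrocytes to 9 and oligodendrocyte precursors to 4 lower, glutamate handling to 4 higher, GABA and glycine handling to 7 lower, GABA receptors to 3 higher and 4 lower, the median of adrenergic receptors from 0.34 to 0.13, and the median of the cerebellum from -0.47 to -0.015. Endothelial and mural genes had 0 calls after the correction. The part of GC content in single genes was not tested.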

How the data were processed

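The authors pooled brain RNA of 7 mice per genotype, sequenced 1 library per condition on a SOLiD instrument in a single run, aligned the reads to NCBI37/mm9, and deposited counts of reads that fell on a single gene, keeping genes with reads over more than 50% of their sequence. The counts were not normalized, and which gene annotation was used is not given in the sources used here. RPM were taken over the aligned reads that the study gives for each library. Of 12700 genes 12690 matched a symbol and 12415 GENCODE vM1, from which positions were taken.

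Genes with 20 or more reads in at least 2 libraries were tested with edgeR 4.0.16 (quasi-likelihood, robust, Benjamini-Hochberg adjusted p under 0.05, R 4.3.3), 2 libraries against 2, without normalization factors. With 2 residual degrees of freedom the test borrows its spread from all genes, and an exact permutation of 2 against 2 cannot go below 0.33. Standard errors come from the spread within sides. Intervals (exact, 95%) and floors of 3 reads cover counting error only. Alternatives were other scalings, filters, DESeq2 1.42.0, a Poisson test with the study's thresholds in both areas, the labelled area as block, a log2 threshold of 0.7, each library left out, and a GC and length correction (spline on 12177 genes). The steps were tested on simulated data.

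Genes were named if they belonged to a marker list, or were among the 10 highest or 10 lowest called genes with the same direction in both areas and 100 or more reads on either side, with Ids. The comparison and the lists were chosen with earlier results of these data known. A few genes that met this rule are not reported here, though they entered all counts and medians.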

Additional observations from a re-analysis of the deposited data

Results flagged for a closer look

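Ids and several genes of glia and blood had log2 ratios of Ids-ko over wt of at least 0.7 in size with opposite signs in the 2 labelled areas. With 1 library per condition the difference between the areas was not tested. Ids was at -1.39 in Cx and 1.25 in M. Gfap was at 1.11 in Cx and -1.13 in M. Among homeostatic microglial genes, C1qa was at 1.42 in Cx and -1.01 in M, Fcrls at 1.83 and -1.01, and Aif1 at 1.16 and -1.06. Among activated microglial genes, Lyz2 was at 1.93 in Cx and -1.93 in M, Gpnmb at 2.097 and -0.91, Cst7 at 1.56 and -1.11, Lgals3 at 1.52 and -1.58, Tyrobp at 1.36 and -1.50, Ccl3 at 1.13 and -2.83, Fcer1g at 0.89 and -0.75, and Ctss at 0.80 and -1.45. The median of the activated list was 1.06 in Cx and -1.11 in M. Hba-a1, an alpha globin gene that marks red cells, was at -1.06 in Cx and 1.33 in M.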

How the results depend on the processing

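With each library left out, the lone library of that side being assumed to vary like the others, the calls ranged from 412 to 1894 higher and from 329 to 1975 lower, the lowest without CxH. The Poisson test past the study's thresholds in both areas gave 787 higher and 816 lower. With the labelled area as replicate block the calls numbered 1117 and 1253, with 81.2% of the calls shared. The deviations of CxH and CxWT from their sides correlated at -0.06 across genes. No other count of all calls moved by over 1.5 times. With 100 or more reads in every library, which removes genes near 0 on one side, the members called lower numbered 10 for thalamus and habenula, 3 for hypothalamus, 0 for midbrain, 5 for dopamine, 2 for serotonin, 1 for noradrenaline and 4 for acetylcholine neurons, 2 for nicotinic and 1 for glycine receptors, and 1 for ependyma. No midbrain member passed that filter, so its count was fixed at 0. Leaving out a library gave 2 to 5 members lower for GABA and glycine identity, 4 to 14 for oligodendrocytes and 0 to 4 for ependyma, and the Poisson test gave 7 for oligodendrocytes. With 100 reads in every library the shares of variation were 75.2%, 13% and 11.8%. Over the 15 lists with most members called one way, 193 of 210 alternative counts stayed within 1.5 times, while 83 of 489 alternative list medians moved by more than the spread between libraries. Of 412 alternative values of 31 single genes 406 kept their direction and side of the threshold and 1 lost its call without CxH. The log2 difference of Ids, not called, turned from -0.07 to 0.003 with DESeq2 size factors, 0.072 with the DESeq2 Wald test, 0.25 after GC correction, and with a library left out it ranged from -0.79 without MH to 0.65 without CxH, and the cause was not tested.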

Other observations

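Genes of the Y chromosome were read as a further check of the pools. Ddx3y, an RNA helicase, had 25.3 and 33.0 RPM in CxH and MH against 49.2 and 64.4 RPM in CxWT and MWT, a log2 difference of -0.96 ± 0.27 (edgeR, adjusted p = 0.00050). Uty had 12.1 and 15.5 RPM against 18.4 and 21.6 RPM, and Kdm5d and Eif2s3y had log2 differences of -0.31 ± 0.30 and -0.20 ± 0.30. These 3 were not called. All 4 were detected in every library.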
